A study of Mus musculus with 2 samples.

Results

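T cells and natural killer (NK) cells of mosaic squamous cell carcinomas carry DNA codes that were placed on them by light while they were still in the tumour section. The cells were ordered here by the ratio of 2 of those codes, ZC1 and ZC5. A barcode counted as a T or NK cell if it held 1000 or more gene UMIs (unique molecular identifiers, each 1 counted transcript) from 500 or more genes, of which no more than 10% were mitochondrial. It also needed at least 1 UMI of Cd3e or at least 2 of Ncr1, no UMI of Csf1r and at least 50 code UMIs. The rule kept 1389 cells, 489 in tumour 1 and 900 in tumour 3, of 11552 barcodes that passed the UMI, gene and mitochondrial limits (4818 in tumour 1 and 6734 in tumour 3). Before the minimum of 50 code UMIs there were 507 and 952 such cells. In each tumour the cells were ranked by log2((ZC1 + 1)/(ZC5 + 1)) and divided into 3 equal groups, of 163 cells each in tumour 1 and 300 each in tumour 3. The high-ratio group, with the most ZC1 relative to ZC5, was compared with the low-ratio group, and the middle group lies between them. The members were thus chosen by their UMIs of Cd3e, Ncr1 and Csf1r, and the groups by their code UMIs.

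The samples were 2 untreated subcutaneous tumours in FVB mice, labelled replicates 1 and 3, each grown by injecting 2 squamous carcinoma lines together, CIT6 marked with YFP and CIT9 marked with RFP. The design text says that leukocytes in YFP+, RFP+ and mixed regions received different codes. The labels do not say which code went to which region, so nothing below is a statement on a YFP+ or an RFP+ side. CD45+ cells were sorted before droplet encapsulation. Tumour 1 carries the codes ZC1, ZC2 and ZC5 and tumour 3 carries ZC1, ZC5 and ZC6. The 2 tumours thus share only the codes of the ratio, and what lies between the ends of the scale differs between them. Nothing in the labels tells if the tumours came from separate animals, so the p-values speak for these 2 samples only. With the tumour as a block, they rest on how far the differences among ratio groups varied between the 2 tumours. The difference in level between the tumours is not part of that spread. The whole matrices held 89040909 and 170328781 gene UMIs in tumours 1 and 3. No barcode was shared by the members of the 2 tumours.

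Cd3e encodes a signalling chain of the T cell receptor complex and Ncr1 encodes the activating receptor NKp46 of NK cells. In tumours, CD8 T cells and NK cells kill target cells with perforin and granzymes and secrete interferon gamma and chemokines, while Foxp3+ regulatory T cells restrain them. Dividing lymphocytes switch on a shared set of replication, histone and mitosis genes, so that a few such cells can hold most of the UMIs of those genes in a small pool.

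The cells carried the markers of their label beyond the genes of the rule. Trbc2, a constant segment of the T cell receptor beta chain, had a UMI in 91.8% of the cells of tumour 1 and 95.8% of those of tumour 3, and Lck, the kinase next to the receptor, in 78.1% and 90.0%. The 6 further T cell markers summed to 3978 and 4896 CPM (UMIs of a gene per 1000000 gene UMIs of the pool) against 11.5 and 10.3 CPM in the Csf1r phagocytes of the same tumours, and the 6 NK markers to 533 and 561 CPM against 10.7 and 22.8 CPM. All 8 macrophage markers had UMIs, but they made up 0.0700% to 0.108% of the UMIs of the ratio groups against 3.36% to 5.81% of those of the phagocyte ratio groups. The phagocytes were barcodes with at least 2 UMIs of Csf1r and none of Cd3e or Ncr1, under the same other limits. The low level of each class's markers in the other class thus follows in part from these rules. The B cell marker Ms4a1 and the keratins Krt5 and Krt14 were at 0 in both tumours. The 4 B cell markers summed to 11.2 and 22.2 CPM, and the 6 tumour and keratinocyte markers to 16.1 and 2.65 CPM. The 6 dendritic markers summed to 123 and 199 CPM, above the 19.98 and 22.7 CPM of the phagocytes. The 5 neutrophil markers, at 417 and 7.82 CPM, were below the phagocytes' 1250 and 36.5 CPM. The 3 mast cell markers summed to 57.8 and 0.126 CPM. The part of such other cells in the pools was not tested. By the genes of the rule, 396 and 731 cells were T cells (Cd3e at least 1) and 93 and 169 were NK cells (Ncr1 at least 2 and no Cd3e). The Trbc2 share of all these cells was above the share of T cells in both tumours. Some NK cells thus also held a Trbc2 UMI, and Trbc2 alone did not set T cells apart from NK cells here.

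The code ratio itself, which defines the ratio groups and is given as a description, lay at different levels in the 2 tumours. Its median over T and NK cells was 0.68 in tumour 1 and -1.78 in tumour 3, beside -0.31 and -1.68 in the phagocytes. The high-ratio group of tumour 1 started at 1.48, with the next cell of the middle group also at 1.48, and its low-ratio group ended at 0, a value shared with the lowest cell of the middle group. In tumour 3 the high-ratio group started at -1.30, where the middle group ended, and the low-ratio group ended at -2.17, with the middle group starting at -2.16. A ratio above 0 was found in 324 of 489 cells of tumour 1 (66.3%) and in 127 of 900 cells of tumour 3 (14.1%), and all 127 lay in the high-ratio group of tumour 3, where they made up 42.3%. Equal ranks in the 2 tumours therefore hold unequal ratios. The median cell had 4626, 5075 and 4340 gene UMIs in the high-ratio, middle and low-ratio groups of tumour 1 and 5999.5, 7277.5 and 7453.5 in those of tumour 3. Its code UMIs were 662, 430 and 234 in tumour 1 and 247.5, 295.5 and 366.5 in tumour 3. Code depth thus ran in opposite directions along the ratio in the 2 tumours, and gene depth was lower in the high-ratio group in tumour 3 only. Barcodes with at most 99 gene UMIs, which hold free code, had a summed ratio of 0.50 in tumour 1 and -1.17 in tumour 3. The part of free code in the ranks was not tested.

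**Figure D1:**
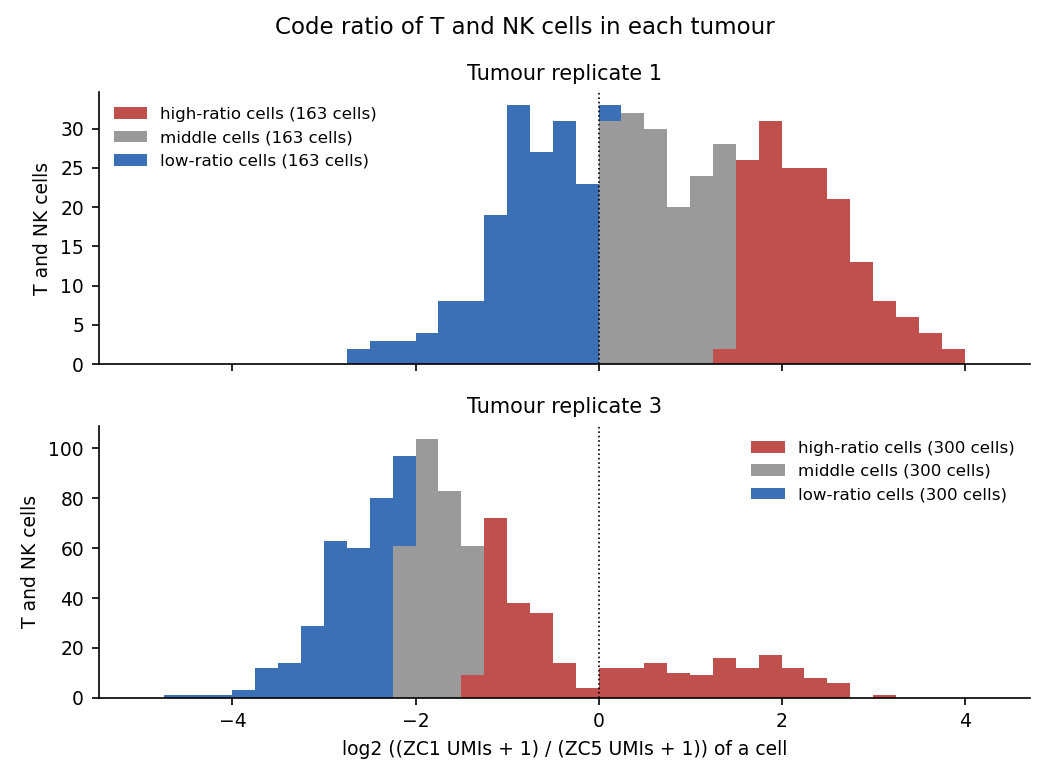
Number of T and NK cells by code ratio (x axis, log2) in tumour 1 (upper) and tumour 3 (lower), coloured by ratio group. The high-ratio group of tumour 1 lies above 1.48, while the high-ratio group of tumour 3 starts at -1.30 and holds all 127 cells of that tumour with a ratio above 0.

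With the cells divided into 3 groups by the ratio, the makeup of the high- and low-ratio groups differed in opposite directions in the 2 tumours for NK cells, CD8 T cells and Foxp3 T cells. Other rankings and divisions gave 1 direction in both tumours for some of these shares, as given below. Shares that rest on a UMI of a gene were taken after each cell was thinned to 1000 UMIs, since a deeper cell shows a rare transcript more often, and the unthinned share is given after it. Intervals are exact 95% binomial (Clopper-Pearson) and cover counting error only. With 2 tumours an exact paired permutation test cannot go below p = 0.5, so no test was run on the shares.

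NK cells made up 22.7% (37 of 163 cells, interval 16.5% to 29.9%) of the high-ratio group of tumour 1 against 14.7% (24 of 163, 9.67% to 21.1%) of its low-ratio group, with 19.6% in the middle. In tumour 3 they made up 18.0% of the high-ratio group (54 of 300, 13.8% to 22.8%) and 20.3% of the low-ratio group (61 of 300, 15.9% to 25.3%). The difference was 7.98 percentage points in tumour 1 and -2.33 in tumour 3, a mean of 2.82 ± 7.29 (SD, n = 2). The intervals of the 2 ratio groups overlapped in each tumour. Ranked by the ZC1 share of a cell's codes in place of the ratio, the difference was positive in both, 9.20 points in tumour 1 and 3.67 in tumour 3.

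CD8 T cells (a UMI of Cd8a or Cd8b1, none of Cd4 or Foxp3), the T cells that recognise MHC class I, were 7.94% of T cells in the high-ratio group and 5.76% in the low-ratio group of tumour 1. They were 15.4% (11.2% to 20.6%) in the high-ratio group and 24.7% (19.4% to 30.7%) in the low-ratio group of tumour 3, and these intervals overlapped. Unthinned, the tumour 3 values were 23.6% (58 of 246 T cells, 18.4% to 29.4%) in the high-ratio group, 31.7% in the middle group and 36.0% (86 of 239, 29.9% to 42.4%) in the low-ratio group. The unthinned intervals of the high- and low-ratio groups did not overlap, but these shares are not corrected for depth. The median T or NK cell had 7453.5 gene UMIs in that low-ratio group against 5999.5 in the high-ratio group. In tumour 1 the unthinned shares rested on 12 cells in the high-ratio group and 8 cells in the low-ratio group. A UMI of Cd8a or Cd8b1 was found in 0.0305% and 0.148% of the thinned phagocytes of tumours 1 and 3. Their median depth was 18977 and 24176.5 gene UMIs before thinning. The phagocytes were chosen to hold no Cd3e or Ncr1, which in part sets such low shares of T cell genes. With 2 equal groups in place of 3 the thinned difference was negative in both tumours, -0.66 and -6.02 points.

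Foxp3 T cells (a UMI of Foxp3, the lineage factor of regulatory T cells, and none of Cd8a or Cd8b1) were 18.3% of T cells in the high-ratio group and 23.7% in the low-ratio group of tumour 1. They were 11.4% (7.70% to 16.0%) in the high-ratio group and 6.28% (3.56% to 10.1%) in the low-ratio group of tumour 3. Unthinned they were 46.0% and 48.9% in the high- and low-ratio groups of tumour 1, and 30.1% (24.4% to 36.2%) and 20.9% (15.9% to 26.6%) in those of tumour 3. Foxp3 was seen in 0.0610% and 0.0633% of the thinned phagocytes. With these 3 groups the order of the Foxp3 shares was opposite in the 2 tumours. By the ZC1 share the unthinned difference was -0.71 and -0.15 points, against -6.81 and 1.27 thinned.

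The thinned differences of the remaining subsets had the same sign in both tumours, with small counts. Trdc T cells had a UMI of Trdc, the constant segment of the gamma delta receptor, and none of Cd8a, Cd8b1, Cd4 or Foxp3. They were 1.59% of T cells in the high-ratio group and 2.16% in the low-ratio group of tumour 1 (2 and 3 cells). They were 2.44% (6 of 246, 0.90% to 5.23%) and 8.37% (20 of 239, 5.19% to 12.6%) in the high- and low-ratio groups of tumour 3. Unthinned they were 2.38% and 2.88% in tumour 1 and 6.10% and 8.79% in tumour 3, and with the outer of 4 equal groups the thinned difference had opposite signs, 1.18 and -4.10 points. Foxp3-negative CD4 T cells were 14.3% and 13.7% of T cells in the high- and low-ratio groups of tumour 1, and 8.13% and 5.86% in those of tumour 3. Unthinned they were 20.6% and 21.6% in tumour 1 and 17.9% and 16.3% in tumour 3, with opposite signs. Dividing cells (a UMI of Mki67 or Top2a) were 3.68% and 3.07% of T and NK cells in the high- and low-ratio groups of tumour 1, and 7.67% and 7.0% in those of tumour 3. In the thinned phagocytes the share was 0.763% and 0.338% for Cd4, 0.0305% and 0.0211% for Trdc, and 3.69% and 8.99% for Mki67 or Top2a, which phagocytes can express. Without thinning the dividing cells were 16.6% and 18.4% in the high- and low-ratio groups of tumour 1, and 22.7% and 29.0% in those of tumour 3, so the sign of that difference depended on the depth correction.

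**Figure D2:**
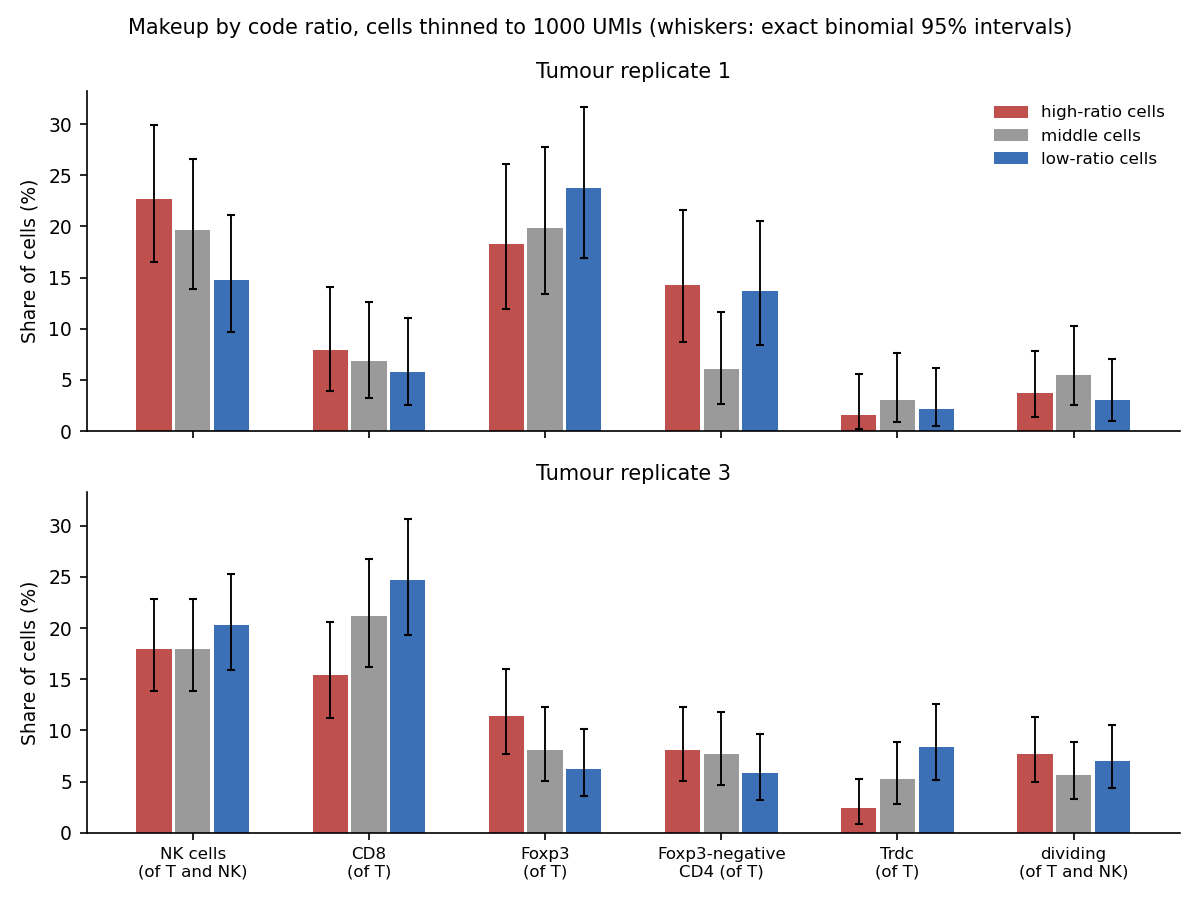
Share of cells (%, bars) of each subset in the high-ratio, middle and low-ratio groups of tumour 1 (upper) and tumour 3 (lower), each cell thinned to 1000 UMIs, with exact 95% binomial intervals as whiskers. The CD8 share of T cells is 15.4% in the high-ratio group and 24.7% in the low-ratio group of tumour 3 and 7.94% and 5.76% in those of tumour 1.

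To compare transcript levels, the UMIs of all cells of a ratio group were summed per tumour and the sums were tested with edgeR's quasi-likelihood test, with the tumour as a block and Benjamini-Hochberg adjustment over all genes tested. In all T and NK cells, 0 of 9311 genes (0%) passed an adjusted p of 0.05. At an unadjusted p under 0.05 there were 280 genes (3.01%), 135 higher (1.45%) and 145 lower (1.56%) in the high-ratio group, and DESeq2 called 2 genes. The 2 tumours gave the same sign for 4470 of the 9311 genes. Cd3e, Ncr1 and Csf1r chose the cells and were not tested. In these pools the fibroblast markers summed to 8.06 and 4.55 CPM in the high-ratio groups and 11.7 and 145 CPM in the low-ratio groups. The red cell markers reached 138 CPM in the low-ratio group of tumour 1 alone, and their part in the results was not tested.

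The 2 genes with the smallest p were the cytotoxic and inflammatory genes Gzma, which encodes a granzyme, and Ccl5, a chemokine that draws T cells and monocytes. Ccl5 stood at 904 CPM in the high-ratio group of tumour 1 and 1546 CPM in that of tumour 3, against 473 and 767 CPM in the low-ratio groups. Its log2 difference was 1.02 ± 0.16 (SE) with an edgeR adjusted p of 0.594, and DESeq2 gave it an adjusted p of 0.000135. It had a UMI in 39 of 163 and 155 of 300 cells of the high-ratio groups and 48 of 163 and 119 of 300 of the low-ratio groups, so that in tumour 1 fewer cells held more UMIs, 272 of the 1009 in 1 cell. Gzma stood at 162 and 213 CPM in the high-ratio groups against 87.1 and 58.9 CPM in the low-ratio groups, a log2 difference of 1.49 ± 0.22 (edgeR adjusted p 0.594, DESeq2 adjusted p 0.0247). In tumour 1 its 181 UMIs in the high-ratio group came from 13 cells and its 89 UMIs in the low-ratio group from 5 cells, of which 1 held 61. Both genes were higher in the high-ratio group within each tumour, and neither passed the edgeR test with these pools. Both passed it under other settings, with cells thinned to 1000 UMIs (Gzma log2 2.49, adjusted p 6.7e-15, and Ccl5 log2 1.19, adjusted p 1.6e-12), with Cd3e of at least 2 (adjusted p 0.0467 each), with the outer of 4 equal groups, without the middle group, without the 5% of cells with most UMIs and without the filter on low counts. Neither passed it with 2 equal groups, with other code UMI minimums, ranked by the ZC1 share (adjusted p 0.13 each) or without the tumour block (adjusted p 1.00 each).

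Genes of lymphocyte state that were named whatever their result did not pass either. Pdcd1, the inhibitory receptor PD-1, was at 25.97 and 40.1 CPM in the high-ratio groups of tumours 1 and 3 and at 70.4 and 60.3 CPM in the low-ratio groups (log2 -0.89 ± 0.22, edgeR adjusted p 1.00). Cxcr3, the receptor for interferon-induced chemokines, was at 72.6 and 94.3 CPM against 59.7 and 57.1 CPM, and Cxcr6, a receptor of resident effector cells, at 266 and 184 CPM in the high-ratio groups against 367 and 290 CPM in the low-ratio groups. Tcf7, a factor of naive and memory cells, was at 121 and 103 CPM in the high-ratio groups against 59.7 and 99.6 CPM in the low-ratio groups, so that the difference was carried by tumour 1. Foxp3 followed its cell shares, with 128 and 98.0 CPM in the high-ratio groups against 194 and 52.7 CPM in the low-ratio groups, and the 2 tumours had opposite signs (log2 -0.48 and 0.88). Of the 28 tested interferon gamma-induced GTPases and MHC class I genes, 18 were higher in the high-ratio group in both tumours and 1 was lower in both. Over all 9311 genes 24.0% were higher in both and 24.0% lower in both. Of the 28, 0 passed the test, and their median log2 difference was 0.17 beside 0.01 over all genes.

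When T cells and NK cells were fitted as separate pools, T cells again gave 0 of 7729 genes (0%) at an adjusted p of 0.05 with edgeR, with 254 genes (3.29%) at an unadjusted p under 0.05, 117 higher (1.51%) and 137 lower (1.77%), and 2 genes called by DESeq2. The genes nearest the threshold were Hes1, a target of Notch signalling, and Prf1, which encodes perforin. Prf1 was at 12.9 CPM in the high-ratio groups of both tumours against 29.9 and 56.2 CPM in the low-ratio groups of tumours 1 and 3 (log2 -1.89 ± 0.31, edgeR adjusted p 0.0888). It had a UMI in 6 of 126 and 18 of 246 T cells of the high-ratio groups and in 12 of 139 and 56 of 239 of the low-ratio groups, and it was 1 of the 2 genes called by DESeq2 (adjusted p 0.00757), with the interferon-induced Ifitm1. Hes1 was at 1.44 and 1.03 CPM in the high-ratio groups against 27.2 and 20.6 CPM in the low-ratio groups (log2 -4.10 ± 0.62, edgeR adjusted p 0.0706), but 35 of its 40 UMIs in the low-ratio group of tumour 3 came from 1 cell. Of the 20 tested inhibitory receptor and exhaustion genes, 9 were lower in the high-ratio group in both tumours and 3 higher, beside 23.6% and 25.5% of all genes. Of the 20, 0 were called, with a median log2 difference of -0.27 beside 0.00 over all genes. Among them Pdcd1 in T cells was at 37.3 and 49.97 CPM in the high-ratio groups against 97.8 and 85.1 CPM in the low-ratio groups, and Rgs16, a brake on G protein signalling, at 155 and 123 CPM against 258 and 240 CPM (edgeR adjusted p 0.713 and 0.436).

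NK cells gave 9 called genes of 7729 (0.116%), 2 higher (0.0259%) and 7 lower (0.0906%) in the high-ratio group. At an unadjusted p under 0.05 there were 525 genes (6.79%), 296 higher (3.83%) and 229 lower (2.96%). Ifng and Cd28 were the 2 genes that rose, and both were detected in many cells. Ifng, which encodes interferon gamma, was at 64.3 CPM in the high-ratio group of tumour 1 and 354 CPM in that of tumour 3, against 28.0 and 114 CPM in the low-ratio groups, a log2 difference of 1.58 ± 0.28 (edgeR adjusted p 0.0392). It had a UMI in 11 of 37 and 35 of 54 NK cells of the high-ratio groups and in 6 of 24 and 28 of 61 of the low-ratio groups. The middle groups were at 17.2 and 97.1 CPM, close to the low-ratio groups. Cd28, a costimulatory receptor, was at 88.1 and 191 CPM in the high-ratio groups against 45.4 and 64.0 CPM in the low-ratio groups (log2 1.43 ± 0.22, edgeR adjusted p 0.0213), with a UMI in 17 of 37 and 34 of 54 cells against 7 of 24 and 28 of 61. Within each tumour both genes were higher in the high-ratio than in the low-ratio group, while across tumours the levels overlapped. DESeq2 called Cd28 (adjusted p 0.0116) but not Ifng (0.352), and without the tumour block edgeR called 0 of the 7729 genes (239 at an unadjusted p under 0.05). Neither gene was called with 2 equal groups in place of 3, where Ifng had a log2 difference of 1.11 (edgeR adjusted p 0.39) and Cd28 of 0.56 (adjusted p 1.00). Ifng was not called with at least 100 code UMIs (log2 1.04, adjusted p 0.42), nor Cd28 with cells thinned to 1000 UMIs (log2 1.01, adjusted p 0.82).

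Markers of other cells in the NK pools were counted beside these genes. Trac, the constant segment of the T cell receptor alpha chain, had 4 and 4 UMIs in the high-ratio groups and 1 and 6 in the low-ratio groups, and the T cell genes Cd5 and Themis were at 0 in all 6 libraries. Trdc, in contrast, had a UMI in 48 of 93 NK cells of tumour 1 (51.6%) and 99 of 169 of tumour 3 (58.6%), unthinned. Among T cells, whatever their other subset genes, the unthinned share was 4.04% and 8.34%. A Trdc UMI alone thus did not set gamma delta T cells apart from NK cells here. Some NK cells also held a Trbc2 UMI, since its share of all members was above the share of T cells. The 19 T cell receptor and proximal signalling genes summed to 3468 and 3225 CPM in the high-ratio groups against 3683 and 3588 CPM in the low-ratio groups. The part of T cells within the NK pools in the Ifng and Cd28 results was not tested. The 14 macrophage genes summed to 2756 and 1758 CPM against 1579 and 1381 CPM. Without cells in which macrophage markers passed 1% of UMIs, all 9 genes were still among the 11 called, Ifng with an edgeR adjusted p of 0.0357 and Cd28 with 0.0239.

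The genes that fell in the high-ratio NK cells belong to the cell cycle and to neutrophils, and few cells carried them. Pclaf, a partner of the replication clamp, was at 11.9 and 23.1 CPM in the high-ratio groups against 73.4 and 116 CPM in the low-ratio groups (log2 -2.46 ± 0.42, edgeR adjusted p 0.0392), and 20 of its 21 UMIs in the low-ratio group of tumour 1 came from 1 cell. Hist1h1e, a linker histone, was at 7.14 and 12.6 CPM against 38.4 and 60.3 CPM (log2 -2.30 ± 0.40, adjusted p 0.0392), with a UMI in 6 of 54 cells of the high-ratio group of tumour 3 and 22 of 61 of its low-ratio group. In tumour 1 it rested on 3 UMIs against 11, of which 1 cell held 9. Hist1h2ap, a histone H2A gene, was at 59.5 CPM and 0 in the high-ratio groups against 1649 and 82.4 CPM in the low-ratio groups (log2 -5.13 ± 0.58, adjusted p 0.00194), and 461 of its 472 UMIs in the low-ratio group of tumour 1 came from 1 cell. Hist1h1b was at 0 in both high-ratio groups against 13 UMIs, all in 1 cell, and 48 UMIs in 5 cells of the low-ratio groups. With the floor of 3 counts over the high-ratio groups its summed UMIs were at least 16.6-fold lower there. This figure counts UMIs and takes no account of how few cells held them. Histone genes have near-identical copies, and the split of reads between them is uncertain.

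S100a8, S100a9 and Il1r2, genes of neutrophils, were called lower in high-ratio NK cells through 1 library. S100a9 had 150 of its 152 UMIs in the low-ratio group of tumour 1 in 1 cell, S100a8 139 of 142 and Il1r2 16 of 17, and in tumour 3 the 3 genes had at most 1 UMI in any ratio group. Il1r2 was listed at 0 in both high-ratio groups, and its summed UMIs were at least 4.63-fold lower there on the same floor. That figure counts UMIs, nearly all from 1 cell, and sets no bound on a difference between cells. The 5 neutrophil markers summed to 21.4 and 2.10 CPM in the high-ratio groups and 1048 and 0 CPM in the low-ratio groups. Without the 1 NK cell that held 3 or more UMIs of S100a8 and S100a9, an alternative added after the data were seen, 5 genes were called, all among the 9: Cd28, Hist1h2ap, Hist1h1b, Pclaf and Hist1h1e. Ifng then had an edgeR adjusted p of 0.0597 at a log2 difference of 1.57.

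**Figure D3:**
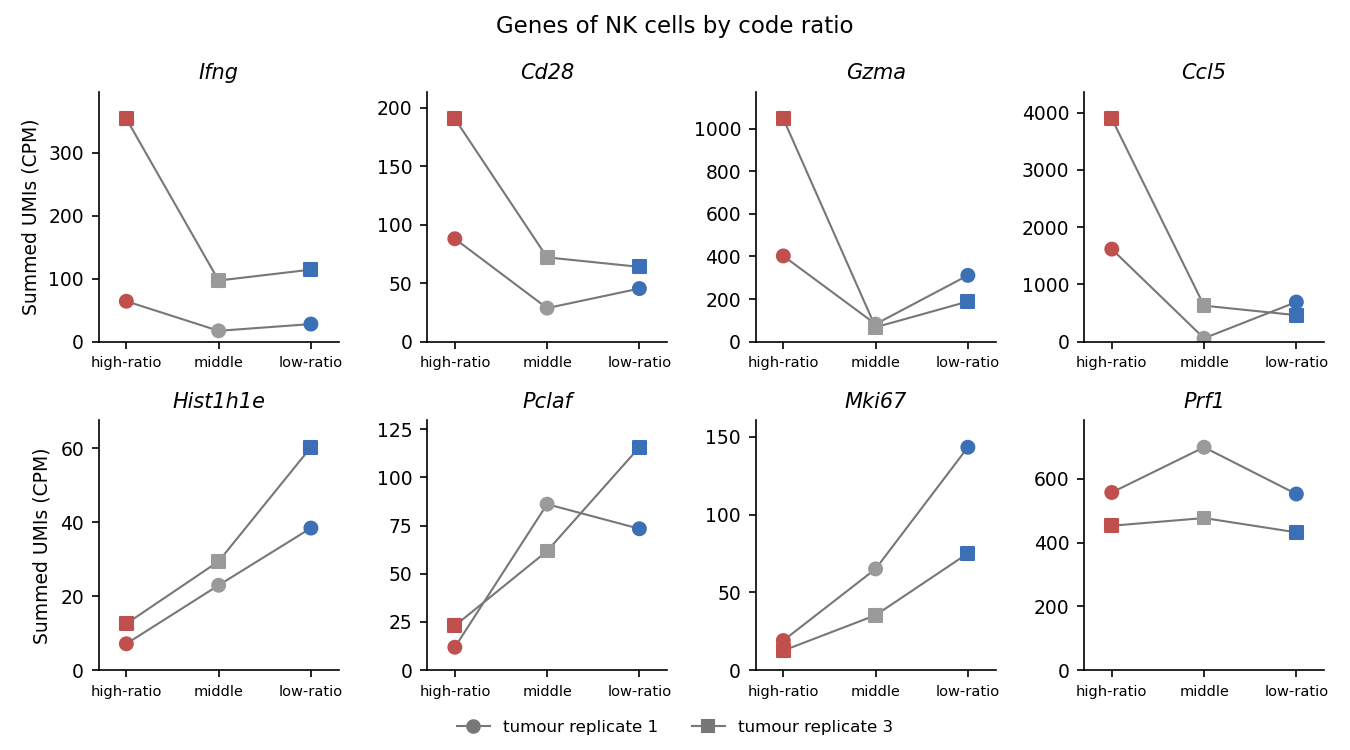
Summed UMIs in CPM (y axis, from 0) of 8 genes in NK cells of the high-ratio, middle and low-ratio groups, circles for tumour 1 and squares for tumour 3. Ifng and Cd28 are highest in the high-ratio group of each tumour, Hist1h1e, Pclaf and Mki67 are lowest there, and Prf1 differs little, at 557 and 453 CPM in the high-ratio groups and 552 and 432 CPM in the low-ratio groups.

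Of the 32 tested cell cycle genes, 21 were lower in high-ratio NK cells in both tumours and 4 higher in both, beside 24.3% and 24.8% of all 7729 genes. Of the 32, 1 (Pclaf) was called, and the median log2 difference was -1.12 beside 0.00 over all genes. Mki67, the proliferation marker, was at 19.0 and 12.6 CPM in the high-ratio groups against 143 and 75.1 CPM in the low-ratio groups (log2 -2.73 ± 0.62, edgeR adjusted p 0.206). Cells with a UMI of Mki67 or Top2a were 7 of 37 and 8 of 54 NK cells of the high-ratio groups against 7 of 24 and 23 of 61 of the low-ratio groups. The high-ratio NK cells summed to 420185 UMIs over 37 cells in tumour 1 and 477162 over 54 in tumour 3, against 286180 over 24 and 812618 over 61 in the low-ratio groups. Mean depth per NK cell was thus lower in the high-ratio group in both tumours, slightly in tumour 1 and more so in tumour 3. With every cell thinned to 1000 UMIs, 15 of the 2166 genes left to test were called, 4 of them among the 9: Ifng, Hist1h2ap, S100a8 and S100a9. The chemokines Ccl5, Ccl4 and Ccl3 and the granzyme Gzma were then called as higher in the high-ratio group, with log2 differences of 2.33, 2.77, 2.24 and 2.38. Without the dividing NK cells, an alternative added after the data were seen, 2 genes were called, Gzma and S100a9, of which only S100a9 was among the 9. The adjusted p of both Ifng and Cd28 was then 0.103, at log2 differences of 1.59 and 1.26.

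Genes of early activation were at higher levels in the high-ratio NK cells without passing the test. Of 26 tested immediate early and activation genes 17 were higher in the high-ratio group in both tumours, 0 were lower in both and 0 were called. Over all genes 24.8% were higher in both and 24.3% lower in both. Of the 26 genes 13 had an unadjusted p under 0.05 in the higher direction (background 3.83% of all genes), and the median log2 difference was 0.43 beside 0.00. The 21 heat shock and dissociation stress genes summed to 5724 and 7547 CPM in the high-ratio groups against 5252 and 7755 CPM in the low-ratio groups. Fosb, a subunit of the AP-1 factor named here after its values were seen, was at 171 and 340 CPM in the high-ratio groups against 17.5 and 166 CPM in the low-ratio groups (log2 1.47 ± 0.33, edgeR adjusted p 0.194), and DESeq2 called it (adjusted p 0.0116). Ccl5 in NK cells was at 1616 and 3892 CPM in the high-ratio groups against 692 and 463 CPM in the low-ratio groups, and Gzma at 402 and 1046 CPM against 311 and 188 CPM (adjusted p 0.214 and 0.217). Gzma was called in NK cells with the outer of 4 equal groups (log2 1.68, edgeR adjusted p 0.0339) and with at least 100 code UMIs (log2 2.25, adjusted p 0.0411), and also thinned to 1000 UMIs, without dividing cells and without the filter on low counts. Ccl5 had a UMI in 11 of 37 and 36 of 54 cells of the high-ratio groups and in 5 of 24 and 19 of 61 of the low-ratio groups. Gzmb, another granzyme, was at 283 and 459 CPM in the high-ratio groups against 363 and 427 CPM in the low-ratio groups. The log2 differences were -0.08 ± 0.21 for Gzmb and 0.06 ± 0.18 for Prf1.

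The difference between high- and low-ratio cells was itself unlike in T and NK cells for 3 of 7729 genes (0.0388%), all 3 replication or histone genes, beside 404 genes (5.23%) at an unadjusted p under 0.05. Pclaf stood at a log2 difference of 1.44 ± 0.25 in T cells and -2.46 ± 0.42 in NK cells, and the difference between them was 3.90 ± 0.48 (edgeR adjusted p 0.00666). In T cells it was at 46.0 and 225 CPM in the high-ratio groups against 34.0 and 67.1 CPM in the low-ratio groups, so the order in T cells was the reverse of that in NK cells in both tumours. Hist1h2ap differed by 5.05 ± 0.68 (adjusted p 0.00947), with -0.08 ± 0.35 in T cells. Hist1h1b, at 0 in the high-ratio NK cells, differed by a fitted 9.76 ± 1.34 (adjusted p 0.0107), a size that depends on the prior count. Ifng, at -0.54 ± 0.25 in T cells and 1.58 ± 0.28 in NK cells, missed the threshold with a difference of -2.12 ± 0.38 (adjusted p 0.0502). Without the dividing NK cells edgeR called 0 genes (350 at an unadjusted p under 0.05), and without the tumour block also 0 (157), while DESeq2 called 7. With cells thinned to 1000 UMIs 2 genes were called, Ccl5 and Spp1, neither among the 3.

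Foxp3 T cells were the only T cell subset with at least 20 cells in every ratio group, 58, 66 and 68 cells in the high-ratio, middle and low-ratio groups of tumour 1 and 74, 50 and 50 in those of tumour 3, and the only one fitted. CD8 T cells numbered 12, 13 and 8 in the ratio groups of tumour 1, and Foxp3-negative CD4 T cells 26, 16 and 30. In Foxp3 T cells 12 of 5128 genes (0.234%) were called, 9 higher (0.176%) and 3 lower (0.0585%) in the high-ratio group, beside 298 (5.81%) at an unadjusted p under 0.05. Of the 9, 8 serve DNA replication, chromatin and mitosis: Pclaf, Hist1h2ap, Hist1h1b, Rrm2, Birc5, Smc2, Top2a and Mki67, and the ninth was Fabp5, a fatty acid carrier. DESeq2 called 0 of the 5128 genes, with 35 at an unadjusted p under 0.05, and without the tumour block edgeR called 0, with 99.

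Top2a, the topoisomerase that untangles replicated DNA, rose to 79.6 and 315 CPM in the high-ratio groups, against 23.5 and 58.7 CPM in the low-ratio groups (log2 2.26 ± 0.35, edgeR adjusted p 0.0116). It had a UMI in 7 of 58 and 18 of 74 cells of the high-ratio groups and in 5 of 68 and 10 of 50 of the low-ratio groups. Mki67 was at 48.5 and 210 CPM against 20.6 and 53.4 CPM (log2 1.81 ± 0.33, adjusted p 0.0344). Rrm2, a subunit of the reductase that makes deoxynucleotides, was at 38.1 and 174 CPM in the high-ratio groups against 5.88 and 29.4 CPM in the low-ratio groups (log2 2.58 ± 0.47), but in tumour 1 these were 11 UMIs in 2 cells against 2 UMIs in 1 cell. Pclaf was at 93.5 and 361 CPM against 2.94 and 53.4 CPM, with 24 of its 27 UMIs in the high-ratio group of tumour 1 in 1 cell. Cells with a UMI of Mki67 or Top2a were 10 of 58 and 24 of 74 Foxp3 T cells of the high-ratio groups and 11 of 68 and 12 of 50 of the low-ratio groups, so that in tumour 1 the share of such cells was about equal while their UMIs were not.

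Fabp5 had a UMI in more cells than the other called genes. It was at 360 and 420 CPM in the high-ratio groups against 174 and 221 CPM in the low-ratio groups, with 209 and 266 CPM in the middle (log2 0.99 ± 0.18, edgeR adjusted p 0.0344), and the 2 high-ratio groups lay above all 4 other libraries. That UMI was found in 35 of 58 and 43 of 74 cells of the high-ratio groups and 31 of 68 and 27 of 50 of the low-ratio groups. Of the 22 tested cell cycle genes, 19 were higher in the high-ratio group in both tumours and 0 lower in both, beside 28.8% and 22.3% of all genes. Of the 22, 5 were called, and the median log2 difference of the list was 1.08 beside 0.00 over all genes. In all T cells the same list had 17 of 32 genes higher in both tumours and 0 lower in both, beside 25.5% and 23.6% of all genes. There 0 of the 32 were called, and the median was 0.42. The opposite signs of this list in Foxp3 T cells and in NK cells stand in separate fits, and the difference between these 2 was not tested.

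The promoters of 2 of the called genes are printed because 5 cell cycle genes were called in Foxp3 T cells, with CCAAT (or ATTGG on the other strand) and TTTGAA (or TTCAAA) in capitals, the letters of the CCAAT box and of the cell cycle homology region known from such promoters. Each is 300 bases of RefSeq sequence on the GRCm38.p6 build, 250 before to 50 after the start of the gene, read 5′ to 3′ on the gene's strand. Top2a lies at chr11:99024140-99024439 on the minus strand, and Mki67 at chr7:135716330-135716629 on the minus strand.
Top2a: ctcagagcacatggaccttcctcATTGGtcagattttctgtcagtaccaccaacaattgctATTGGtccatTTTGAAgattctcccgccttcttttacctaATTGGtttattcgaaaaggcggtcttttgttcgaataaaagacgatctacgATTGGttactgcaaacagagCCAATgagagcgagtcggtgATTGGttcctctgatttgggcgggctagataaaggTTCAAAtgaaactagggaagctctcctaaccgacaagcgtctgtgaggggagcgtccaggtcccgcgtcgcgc
Mki67: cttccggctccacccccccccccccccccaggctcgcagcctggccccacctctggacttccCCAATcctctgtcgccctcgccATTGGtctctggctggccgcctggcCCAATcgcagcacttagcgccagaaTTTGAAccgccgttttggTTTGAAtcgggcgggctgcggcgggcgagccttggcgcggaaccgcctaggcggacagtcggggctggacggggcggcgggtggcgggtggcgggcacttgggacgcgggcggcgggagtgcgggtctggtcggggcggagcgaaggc
Top2a held 6 CCAAT matches and 2 TTTGAA matches and Mki67 held 3 and 2, with no overlap between the motifs. Over all 32817 RefSeq mouse promoters of that length 37.4% hold CCAAT and 17.9% hold TTTGAA on either strand. Of the other called genes of the list, Pclaf held 2 and 0 matches, Rrm2 1 and 0, and Birc5 none of either.

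**Figure D4:**
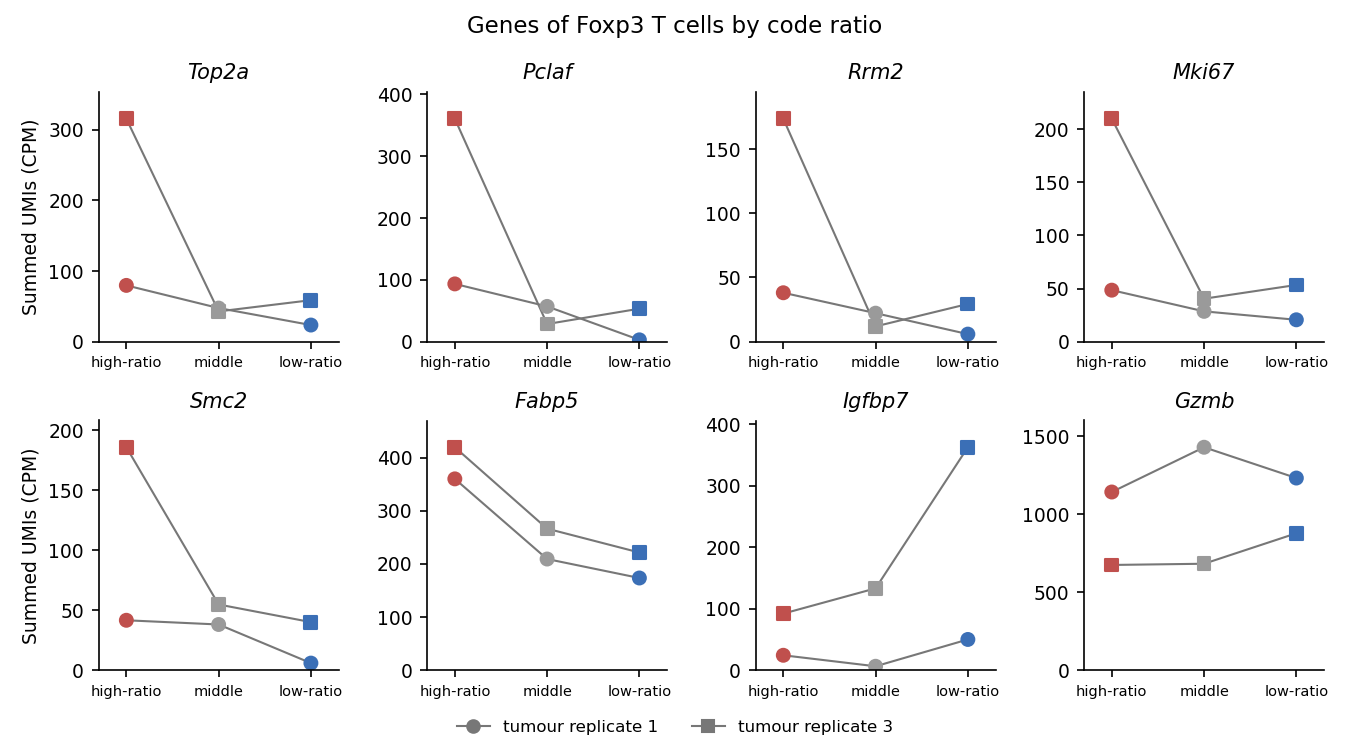
Summed UMIs in CPM (y axis, from 0) of 8 genes in Foxp3 T cells of the high-ratio, middle and low-ratio groups, circles for tumour 1 and squares for tumour 3. Top2a, Pclaf, Rrm2, Mki67, Smc2 and Fabp5 are highest in the high-ratio group of each tumour, and Igfbp7 is highest in the low-ratio group.

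The 3 genes that fell in high-ratio Foxp3 T cells were Igfbp7, Gzmc and Trdc. Igfbp7, which binds insulin-like growth factors, was at 24.2 and 92.1 CPM in the high-ratio groups against 49.99 and 363 CPM in the low-ratio groups (log2 -1.86 ± 0.28, edgeR adjusted p 0.0115), and 15 of its 17 UMIs in the low-ratio group of tumour 1 came from 1 cell. Gzmc, a granzyme, was at 3.46 and 4.53 CPM against 132 and 10.7 CPM (log2 -3.41 ± 0.64, adjusted p 0.0378). In tumour 1, 36 of its 45 UMIs in the low-ratio group came from 1 cell. Trdc was at 0 in both high-ratio groups and rested on 1 cell in each low-ratio group, with 12 and 36 UMIs. On the floor of 3 counts over the high-ratio groups its summed UMIs were at least 21.3-fold lower there. That figure counts UMIs, and with 1 cell in each low-ratio group it sets no bound on a difference between cells. Without the Foxp3 T cells that held Trdc or 3 or more UMIs of S100a8 and S100a9, an alternative added after the data were seen, 25 genes were called, 10 of them among the 12. Without the dividing cells 1 gene was called, Igfbp7. Il2ra, the high-affinity interleukin 2 receptor chain of regulatory T cells, was at 637 and 353 CPM in the high-ratio groups and 573 and 371 CPM in the low-ratio groups (log2 0.05 ± 0.16, edgeR adjusted p 0.971).

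**Figure D5:**
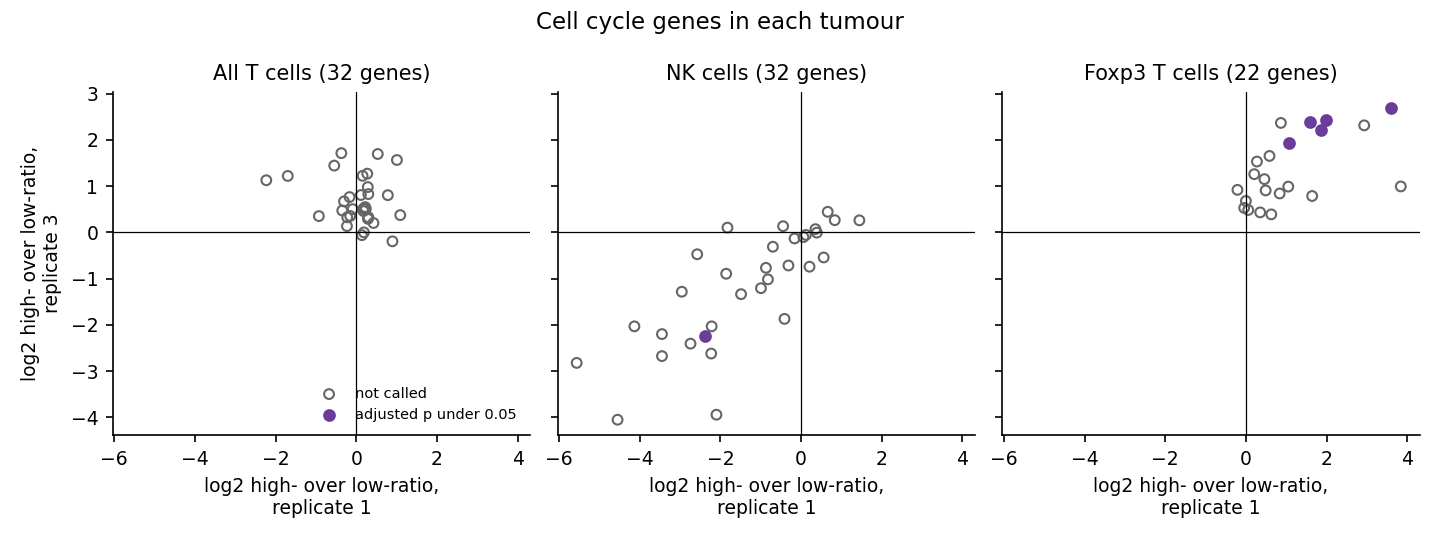
Log2 ratio of the high- over the low-ratio group of each tested cell cycle gene in tumour 1 (x axis) and tumour 3 (y axis), in all T cells, NK cells and Foxp3 T cells, filled where the gene was called. In NK cells 21 of 32 genes lie below 0 in both tumours (24.3% over all genes), and in Foxp3 T cells 19 of 22 lie above 0 in both (28.8% over all genes).

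Against the Csf1r phagocytes of the same sections, which were divided by the same ratio, the difference between high- and low-ratio cells was unlike for 1 of 13354 genes (0.00749%), beside 573 genes (4.29%) at an unadjusted p under 0.05. The gene was S100a9, which encodes a subunit of calprotectin. S100a9 was at 25.1 and 3.31 CPM in the high-ratio T and NK cells of tumours 1 and 3 against 352 and 0.727 CPM in the low-ratio groups, and at 998 and 15.4 CPM in the high-ratio phagocytes against 276 and 5.91 CPM in the low-ratio phagocytes. The difference of the 2 log2 differences was -4.90 ± 0.54 (edgeR adjusted p 0.0480). DESeq2 and edgeR without the tumour block each called 0 genes here, with 476 and 137 at an unadjusted p under 0.05. In tumour 3 alone the T and NK cells had 8 UMIs in the high-ratio group and 2 in the low-ratio group, the same order as in the phagocytes. In tumour 1 the 360 UMIs of the low-ratio group came from 15 cells, of which 1 held 150. The neutrophil markers summed to 67.2 and 19.0 CPM in the high-ratio T and NK cells against 747 and 1.09 CPM in the low-ratio groups, with Retnlg at 0 in tumour 3, and their part in this result was not tested.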

How the data were processed

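The files hold UMI counts per gene and barcode as deposited, with the light-placed codes as further features. Per the submitters' processing notes the counts were made by the authors with Cell Ranger 4.0 on mm10. Each sample is 1 droplet library of CD45+ cells, from 3' ends, so levels are compared only within a gene. Barcodes were filtered by the limits given above, no doublet caller was run, and barcodes with a Csf1r UMI were left out. UMIs were summed per tumour and ratio group and tested with edgeR 4.0.16 (limma 3.58.1, R 4.3.3) using TMM scaling, filterByExpr, quasi-likelihood F-tests, a tumour block and Benjamini-Hochberg adjustment with a threshold of 0.05. The tested log2 differences used edgeR's default prior count. A prior count of 2 entered only the log2 differences given for 1 tumour alone. All T and NK cells gave 6 libraries with 2 residual degrees of freedom, T cells and NK cells together 12 libraries with 4, and Foxp3 T cells 6. The genes that gated a subset (Foxp3, Cd8a and Cd8b1) were left out of its fit. The tumour is a block because the ratio groups of a tumour come from the same tissue and the same library. DESeq2 1.42.0 was the alternative test, and other filters, cuts and rankings were tried. The fits were checked on counts simulated with known changes. CD8 and Foxp3-negative CD4 T cells were not fitted, as a ratio group of tumour 1 held fewer than 20 of them.

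Genes were named by 1 rule: the 10 called genes with the largest change each way that had the same sign in both tumours and a mean of at least 20 CPM, every called member of a gene list, 10 genes of smallest p where fewer than 5 were called, and a set of lymphocyte genes whatever their result, of which 1 is not reported here. The members and the gene lists were chosen with earlier results of these data known. Sequences are RefSeq promoters, from 250 bases before to 50 after the start. Python 3.11.15 with numpy 2.4.6, pandas 2.3.3, scipy 1.17.1 and matplotlib 3.10.9 was used for counts, shares and figures.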

Additional observations from a re-analysis of the deposited data

Results flagged for a closer look

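The difference between the high-ratio and the low-ratio group was unlike in T cells and in NK cells for 3 genes by the test of that difference itself (edgeR's quasi-likelihood test, Benjamini-Hochberg adjusted over 7729 genes). For Pclaf it was 3.90 ± 0.48 on the log2 scale (adjusted p 0.00666), with the high-ratio group higher in T cells and lower in NK cells in both tumours. For Hist1h2ap it was 5.05 ± 0.68 (adjusted p 0.00947), and for Hist1h1b 9.76 ± 1.34 (adjusted p 0.0107), a fitted size that depends on the prior count. Hist1h1b had 0 UMIs in high-ratio NK cells and 61 in low-ratio NK cells. In the low-ratio NK cells of replicate 1, a single cell held nearly all UMIs of each of the 3 genes, as given above. EdgeR called 0 genes here without the dividing NK cells (350 at an unadjusted p under 0.05) and 0 without the tumour block (157). With 2 equal groups, or with cells thinned to 1000 UMIs, 0 of the 3 genes were called.

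S100a9 was flagged because its difference in T and NK cells was unlike that in the phagocytes of the same tumours, by -4.90 ± 0.54 on the log2 scale (edgeR adjusted p 0.0480 over 13354 genes). Within tumour 3 its log2 difference in T and NK cells was 1.30, and within tumour 1 -3.65.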

How the results depend on the processing

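Counts of called genes depended on the processing, and the causes were not tested except where the construction shows them. In all T and NK cells, with 0 genes called, DESeq2 called 2, no filter on low counts 9, leaving out the middle group 6, at least 100 code UMIs 1, 2 equal groups in place of 3 gave 1, the outer of 4 equal groups 4, ranking by the ZC1 share 3, thinning to 1000 UMIs 11, leaving out the 5% of cells with most UMIs 4, and Cd3e of at least 2 gave 3. In T cells, also with 0, DESeq2 called 2, no filter 49, at least 20 code UMIs 4, at least 100 gave 1, 2 groups 1, 4 groups 3, thinning 6, a robust dispersion fit 4, and the joint fit without dividing NK cells 1. The 9 genes of NK cells became 7 with 2 groups, 3 of them among the 9, 10 with at least 100 code UMIs, 6 of them among the 9, 58 without the filter, 25 with 4 groups, 15 with thinning, 14 with the robust fit, 2 without dividing cells and 5 without the cell rich in S100a8 and S100a9. The 3 genes of the T and NK difference became 7 with DESeq2, 57 without the filter, 17 with at least 20 code UMIs, 9 with 4 groups, 8 without cells over 1% macrophage markers, 14 with the robust fit and 0 without dividing NK cells (350 unadjusted). The 1 gene that differed from phagocytes became 0 with DESeq2 (476 at an unadjusted p under 0.05), 6 without the filter and 0 with the robust fit (572 unadjusted). The 12 genes of Foxp3 T cells became 0 with DESeq2 (35 unadjusted), 61 without the filter, 1 without dividing cells and 25 without cells holding Trdc or S100a8 and S100a9.

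Without the tumour as a replicate block edgeR called 0 genes in each comparison, with 65, 62, 239, 157, 137 and 99 genes at an unadjusted p under 0.05 in T and NK cells, T cells, NK cells, the T and NK difference, the difference from phagocytes and Foxp3 T cells. That fit counts the difference between the tumours as spread.

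Leaving out 1 tumour leaves the other's difference in shares, in percentage points, with no test: -9.24 to 2.18 for CD8, -5.49 to 5.11 for Foxp3, 0.62 to 2.27 for Foxp3-negative CD4, -2.33 to 7.98 for NK cells, -5.93 to -0.57 for Trdc and 0.61 to 0.67 for dividing cells. The mean difference of Foxp3-negative CD4 was -0.42 with at least 2000 gene UMIs, thinned to 2000. That of dividing cells was -4.09 unthinned, 0.91 with at least 20 and -0.40 with at least 100 code UMIs, 0.74 with 2 groups, 1.26 with 4 groups, -0.41 by the ZC1 share, 0.056 with at least 2000 gene UMIs and 0.32 without the 5% of cells with most UMIs.

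Log2 differences that turned sign were mostly near 0. In T and NK cells Cd4 became -0.026 with DESeq2, -0.073 without the block, -0.057 with at least 20 code UMIs, -0.13 with 2 groups, -0.066 with 4 groups, -0.32 by the ZC1 share, -0.064 with at least 2000 gene UMIs and -0.066 with at most 5% mitochondrial UMIs. Under those settings in the same order, 4 groups apart, Tox became -0.019, -0.11, -0.048, -0.16, -0.17, -0.013 and -0.072, and it became -0.53 thinned, -0.010 without cells over 1% macrophage markers, -0.054 without the 5% of cells with most UMIs and -0.042 with Cd3e of at least 2. Foxp3 became -0.011 without the block, -0.13 with 2 groups and -0.12 by the ZC1 share, and Prf1 0.18 with 2 groups and 0.062 by the ZC1 share. Il2ra became -0.11 without the block, -0.098 with 2 groups, -0.065 with 4 groups, -0.023 thinned and -0.070 without the 5% of cells with most UMIs. Itga1 became 0.068 without the block, 0.057 with 2 groups and 0.082 without those cells. Ccr7 became -0.0032 with 2 groups, and Cx3cr1 -0.085 with 2 groups and -0.0070 with at most 5% mitochondrial UMIs.

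In NK cells S100a9 became 1.03 without the cell rich in it, and S100a8, at -5.72 without replicate 3, became 1.01 without replicate 1. Gzmb became 0.082 with at least 100 code UMIs, 0.33 with 2 groups and 0.19 thinned, and Prf1 -0.016 with 4 groups. Tox became -0.081 without the block, -0.074 with at least 20 code UMIs, -2.38 thinned and -0.21 without dividing cells. Tcf7 became 0.00085 with at least 20 code UMIs, 0.12 with 4 groups and 0.040 without the cell rich in S100a9. Ccr7 became -1.001 and Il2ra -4.01 thinned, Cxcr6 -0.45 with 4 groups, and with 2 groups Cx3cr1 0.19 and Itgae 0.13. In Foxp3 T cells Pdcd1 became 0.084 without dividing cells, and Cxcr6 0.055 without the block, 0.0044 without dividing cells and 0.027 without cells holding Trdc or S100a8 and S100a9, where Il2ra became -0.0080. Il2ra became -0.20 without dividing cells. Of the other values for named genes, with leave-one-out fits not counted, 1047 kept direction and side of the threshold, 88 passed it newly and 81 no longer passed.

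With 2 tumours and pools of 24 to 74 NK or Foxp3 T cells, single cells hold much of a gene's UMIs, and depth limits genes at a few UMIs per pool.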
